A study of Mus musculus with 6 samples.

Results

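The genes described here are 40 genes of the oligodendrocyte lineage and of myelin, out of the 24015 gene symbols counted in every sample. They were chosen by symbol for their known place in the lineage, but with earlier results of these data known, and all 40 were present in the counts. The set holds 2 genes of oligodendrocyte precursors, 4 transcription factors of the lineage, 5 genes of newly formed oligodendrocytes and 29 genes of myelinating oligodendrocytes. RNA sequencing compared microdissected arcuate nucleus (ARC) from adult female mice of 2 genotypes. The sample labels give a mixed background of CD-1, 129P2 and C57BL/6, whereas the paper's methods name only CD-1 and 129P2 for this line. Controls (*Esr1* fl/fl, 3 females) carried floxed alleles of *Esr1*, the gene for estrogen receptor alpha, and no Cre, whereas mutants (*Esr1* fl/fl;*Nkx2-1-Cre*, 3 females, called *Esr1* Nkx2-1Cre) carried the same alleles with Cre driven by *Nkx2-1*. This Cre acts from development onwards across the medial basal hypothalamus and is restricted neither to one cell type nor to the ARC, and controls that carry the Cre without floxed alleles are not part of the data. Total counts on genes were 14747944, 17877137 and 14046798 in control replicates 1, 2 and 3 and 11792440, 15741681 and 15166356 in mutant replicates 1, 2 and 3. Levels are given as CPM, counts scaled to library size after TMM normalization, always in the order of the replicate numbers, and 3 counts were worth between 0.175 and 0.248 CPM, a floor that covers counting error only. The deleted gene, *Esr1*, had 64.5, 57.5 and 48.5 CPM in control and 11.8, 9.55 and 7.06 CPM in mutant samples, with no overlap between the genotypes, and its log2 fold change was -2.59 ± 0.18 (SE), with an adjusted *p* = 0.000884 from edgeR's quasi-likelihood test. Every log2 fold change is mutant minus control.

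Oligodendrocytes arise from dividing precursors that carry the receptor for platelet-derived growth factor, pass through a short newly formed stage in which they leave the cell cycle, and then either die or mature into cells that wrap axons. Maturation brings a switch from precursor genes to those for the structural proteins of the myelin sheath and for the enzymes that make its lipids, under transcription factors some of which are shared by all stages. In the adult hypothalamus, precursors in the ARC and the neighbouring median eminence continue to divide and to yield new oligodendrocytes.

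Of the 40 genes, 39 passed the filter on low counts, and 38 of these had a log2 fold change above 0. Of these, 3 genes, *Bcas1* of newly formed oligodendrocytes and *Cldn11* and *Aspa* of myelinating ones, were higher in mutants with an adjusted p-value under 0.05 in edgeR's quasi-likelihood test, against 9 of 15236 genes tested (0.0591%). Lower levels in mutants were called for 0 members by edgeR at the same threshold, against 9 of 15236 genes (0.0591%), and also for 0 members at an unadjusted p-value under 0.05 in that test (611 genes, 4.01%), by DESeq2 (90 of 15951 genes, 0.564%) and by limma voom (11 of 15236 genes, 0.0722%). The number called depended on single samples. Without control replicate 2, edgeR's test called 11 members higher (*Bcas1*, *Car2*, *Cldn11*, *Cnp*, *Ermn*, *Fa2h*, *Mal*, *Mbp*, *Mobp*, *Mog* and *Ugt8a*) and 46 of all genes tested in either direction. Without control replicate 1 or control replicate 3 it called 1 member, *Bcas1*, with 20 and 17 of all genes tested, and without mutant replicate 1 it called 2, *Bcas1* and *Cldn11*, with 19. Leaving out mutant replicate 2 or mutant replicate 3 gave 0 members called by edgeR, with 9 and 7 of all genes tested. In bulk tissue, a different number of oligodendrocytes and a different amount of RNA in each of them cannot be told apart.

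An unadjusted p-value under 0.05, here and in all that follows that of edgeR's test, with a higher level in mutants was found for 30 members, against 738 of all genes tested (4.84%). In 29 members every mutant lay above every control, against 1201 of the genes tested (7.88%), and in 0 members did every mutant lie below every control, against 1200 (7.88%). DESeq2, the tool of the study's methods, called 15 members higher, against 96 of 15951 genes (0.602%), and among the 15 were all 3 that edgeR called. The median log2 fold change was 0.58 over the 39 members, with quartiles of 0.37 and 0.91, and 0.00 over all genes tested, with quartiles of -0.11 and 0.15. P-values of edgeR's test set the difference between genotypes against the spread among samples of a genotype, which is estimated in part from other genes. They rest on these 6 samples, and an exact permutation test of a single gene cannot give a p-value under 0.1 with 3 samples against 3.

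By stage, the median log2 fold change was 0.05 for the 2 precursor genes, 0.50 for the 4 lineage factors, 0.40 for the 5 newly formed genes and 0.66 for the 28 myelinating genes tested. Every mutant lay above every control in 0 of 2, 3 of 4, 3 of 5 and 23 of 28 genes of these stages. Within the myelinating stage, the median was 0.92 for 12 genes of myelin structure, 0.57 for 7 lipid and metabolic enzymes and 0.40 for 9 other genes of mature cells. A test of the difference between stages was not run, and the medians are a description.

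**Figure D1:**
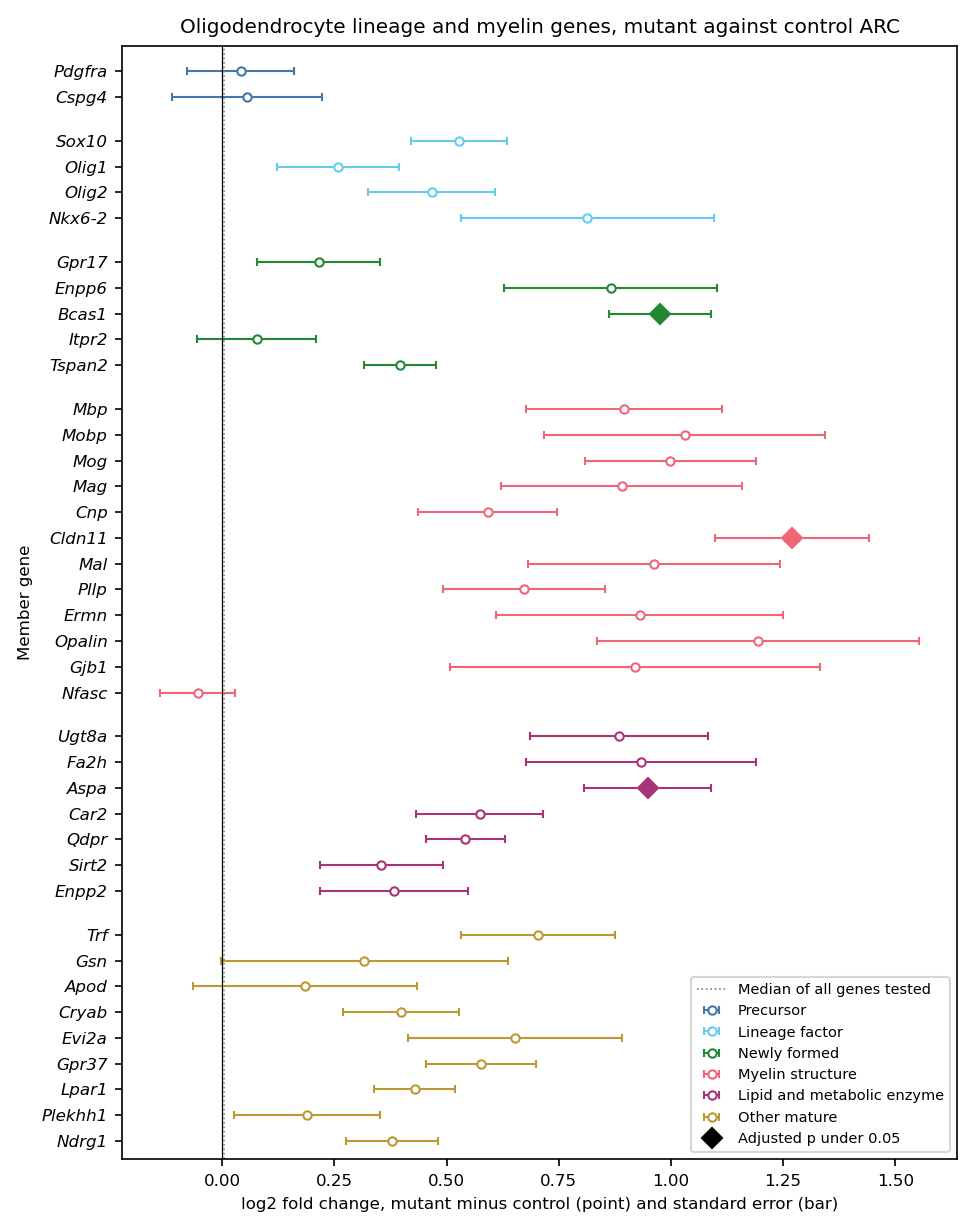
Log2 fold change of the 39 tested member genes (x axis, mutant minus control, points) with its standard error (bars), grouped by stage and function, with filled diamonds for adjusted p-values under 0.05 in edgeR's quasi-likelihood test and a dotted line at the median of all genes tested. The 2 precursor genes lie at 0.04 and 0.06, and the genes of myelin structure other than *Nfasc* lie between 0.59 and 1.27.

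Both precursor genes overlapped between the genotypes, and neither passed the test. *Pdgfra*, which encodes the growth factor receptor that keeps precursors dividing, was at 98.4, 106 and 79.1 CPM in control and 86.7, 98.6 and 106 CPM in mutant samples. The genotypes overlapped, control replicate 3 being the lowest sample, and the log2 fold change was 0.04 ± 0.12 (SE), with an adjusted *p* = 0.957 from edgeR's quasi-likelihood test. *Cspg4*, the gene for the NG2 proteoglycan of precursors and pericytes, was at 19.4, 18.6 and 13.6 CPM in control and 15.2, 18.0 and 20.5 CPM in mutant samples. Its order of samples was alike, with control replicate 3 lowest and mutant replicate 3 highest, and its log2 fold change was 0.06 ± 0.17 (SE), with an adjusted *p* = 0.960 in edgeR's test. The sign of both genes changed without control replicate 3 (log2 fold changes of -0.07 and -0.09) and without mutant replicate 3 (-0.03 and -0.06), so that neither had a direction that all 6 samples shared.

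None of the 4 lineage factors passed edgeR's test, 3 had an unadjusted p-value under 0.05 with a higher level in mutants, and DESeq2 called 1. *Sox10*, a transcription factor of the whole lineage that drives myelin genes, was at 18.8, 21.8 and 19.8 CPM in control and 30.3, 29.1 and 27.8 CPM in mutant samples. No mutant was as low as any control, and the values within a genotype were close together. Its log2 fold change of 0.53 ± 0.11 (SE) did not pass edgeR's quasi-likelihood test (adjusted *p* = 0.106), although it was among the genes that DESeq2 called. *Olig1* and *Olig2* encode basic helix-loop-helix factors of the lineage. *Olig1* was at 49.0, 57.8 and 38.9 CPM in control and 53.9, 59.9 and 60.6 CPM in mutant samples, and control replicate 2 exceeded mutant replicate 1. *Olig2* was at 17.4, 23.1 and 17.4 CPM in control and 28.4, 23.9 and 27.9 CPM in mutant samples, with only a narrow gap between control replicate 2 and mutant replicate 2. Their log2 fold changes were 0.26 ± 0.14 (SE) and 0.47 ± 0.14 (SE), that of *Olig1* being 0.40 without control replicate 2 and 0.12 without control replicate 3. *Nkx6-2*, a homeodomain factor of later oligodendrocytes, was the lowest of the 4 per length (1.03 RPKM, or CPM per kilobase, in controls) and was at 1.94, 2.50 and 1.43 CPM in control and 3.22, 3.46 and 3.73 CPM in mutant samples. Every mutant lay above every control there, and its log2 fold change was 0.81 ± 0.28 (SE). The adjusted p-values of *Olig1*, *Olig2* and *Nkx6-2* were 0.624, 0.328 and 0.405 in edgeR's test.

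The 5 genes of newly formed oligodendrocytes did not share one pattern. *Bcas1*, a gene of cells that begin to myelinate, was higher in mutants, at 57.0, 66.3 and 50.6 CPM in control and 126, 109 and 107 CPM in mutant samples. The lowest mutant was far above the highest control, and the group means were 58.0 ± 7.89 CPM (SD, n = 3) and 114 ± 10.5 CPM (SD, n = 3). The log2 fold change was 0.97 ± 0.11 (SE), and the adjusted *p* = 0.00961 from edgeR's quasi-likelihood test was the smallest of all members. Leaving out each sample in turn, *Bcas1* passed in 4 of 6 fits. It did not pass without mutant replicate 2 (adjusted *p* = 0.0662) or without mutant replicate 3 (adjusted *p* = 0.0527). Over all alternatives run other than the replicate block, its adjusted p-values in edgeR, DESeq2 and limma voom ran from 4.14e-10 to 0.0662.

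*Gpr17*, a receptor gene switched on for a short time in precursors committed to differentiate, was at 40.1, 54.8 and 46.9 CPM in control and 49.1, 51.6 and 64.0 CPM in mutant samples. Only mutant replicate 3 stood above all controls, and the log2 fold change was 0.21 ± 0.14 (SE). It was 0.09 without that sample, 0.11 without control replicate 1 and 0.34 without control replicate 2. *Enpp6*, a choline phosphodiesterase gene used to mark newly forming oligodendrocytes, was at 9.78, 6.63 and 9.11 CPM in control and 19.1, 10.6 and 16.9 CPM in mutant samples. The genotypes did not overlap, but mutant replicate 2 was only slightly above the highest control, and the log2 fold change was 0.87 ± 0.24 (SE). *Tspan2*, a tetraspanin gene, was at 171, 178 and 185 CPM in control and 230.3, 221 and 251 CPM in mutant samples. Its log2 fold change was smaller, 0.40 ± 0.08 (SE), yet its samples were close together within each genotype and DESeq2 called it. *Itpr2*, the gene for an inositol trisphosphate receptor that astrocytes also express, was at 42.9, 54.0 and 58.5 CPM in control and 53.1, 48.7 and 62.1 CPM in mutant samples, with overlapping genotypes and a log2 fold change of 0.08 ± 0.13 (SE). The adjusted p-values of these 4 genes in edgeR's quasi-likelihood test were 0.703 for *Gpr17*, 0.281 for *Enpp6*, 0.106 for *Tspan2* and 0.913 for *Itpr2*. The sign of *Itpr2* changed to -0.04 without control replicate 1 and to -0.03 without mutant replicate 3.

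Of the 12 genes of myelin structure, 11 had every mutant above every control, and 1, *Cldn11*, passed the test. *Cldn11*, which encodes the claudin of the tight junction strands between myelin layers, was at 7.91, 10.99 and 7.39 CPM in control and 18.8, 22.2 and 22.6 CPM in mutant samples. Its group means were 8.76 ± 1.95 CPM (SD, n = 3) and 21.2 ± 2.07 CPM (SD, n = 3), a log2 fold change of 1.27 ± 0.17 (SE) with an adjusted *p* = 0.0313 from edgeR's quasi-likelihood test. This was the largest log2 fold change among the tested members. The call was lost without control replicate 1 (adjusted *p* = 0.0758), control replicate 3 (0.0904), mutant replicate 2 (0.151) or mutant replicate 3 (0.140). Adjusted p-values over all alternatives run other than the replicate block ran from 6.72e-07 to 0.151, while the log2 fold change stayed between 1.16 and 1.47 in the fits that left out a sample.

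*Mbp*, the gene for the basic protein that compacts the cytoplasmic faces of myelin, was at 240.3, 376 and 201 CPM in control and 504, 514 and 504 CPM in mutant samples. The 3 mutants were nearly equal, whereas control replicate 2 was far above the other 2 controls. *Mobp*, a further basic protein gene of compact myelin, was at 39.1, 63.5 and 26.3 CPM in control and 94.4, 85.1 and 84.8 CPM in mutant samples. It had the same order of controls, and again the mutants were close together. *Mog*, the gene for a glycoprotein of the outermost myelin surface, was at 8.64, 12.2 and 7.17 CPM in control and 20.5, 17.7 and 18.1 CPM in mutant samples, and *Mag*, the gene for an adhesion molecule of the layer next to the axon, was at 8.17, 11.1 and 4.81 CPM in control and 14.5, 17.3 and 12.9 CPM in mutant samples. In both, control replicate 2 was the highest control and control replicate 3 the lowest. The log2 fold changes were 0.90 ± 0.22 (SE) for *Mbp*, 1.03 ± 0.31 (SE) for *Mobp*, 1.00 ± 0.19 (SE) for *Mog* and 0.89 ± 0.27 (SE) for *Mag*. None of the 4 passed edgeR's quasi-likelihood test, with adjusted p-values of 0.279, 0.417, 0.0805 and 0.352, and DESeq2 called *Mbp* and *Mog*.

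*Cnp*, which encodes a cyclic nucleotide phosphodiesterase of the cytoplasmic channels in myelin, was at 97.2, 126 and 78.0 CPM in control and 146, 158 and 152 CPM in mutant samples, with a log2 fold change of 0.59 ± 0.15 (SE). *Mal*, a gene for a lipid raft proteolipid of compact myelin, was at 56.0, 98.1 and 47.7 CPM in control and 118, 129.6 and 146 CPM in mutant samples, with a log2 fold change of 0.96 ± 0.28 (SE). In both, control replicate 2 was closer to the mutants than to the lowest control. *Pllp*, which encodes plasmolipin, was at 7.71, 10.4 and 6.96 CPM in control and 14.7, 13.4 and 11.9 CPM in mutant samples, with a log2 fold change of 0.67 ± 0.18 (SE). *Ermn*, the gene for a cytoskeletal protein of mature oligodendrocytes, was at 28.3, 46.6 and 19.5 CPM in control and 68.6, 60.7 and 51.6 CPM in mutant samples, with a log2 fold change of 0.93 ± 0.32 (SE). Control replicate 2 came close to the lowest mutant in *Ermn*. *Opalin* and *Gjb1*, genes for a membrane glycoprotein of myelin and for a gap junction connexin, were near 1 CPM in controls. *Opalin* was at 0.804, 0.931 and 0.932 CPM in control and 1.82, 2.70 and 1.60 CPM in mutant samples and had a log2 fold change of 1.19 ± 0.36 (SE), and *Gjb1* was at 0.938, 0.640 and 0.932 CPM in control and 2.15, 1.63 and 0.999 CPM in mutant samples and had one of 0.92 ± 0.41 (SE). The separation of the genotypes in *Gjb1* rests on 15 counts in mutant replicate 3 against 14 counts in control replicate 1. Adjusted p-values of these 6 genes ran from 0.259 to 0.561 in edgeR's test, and DESeq2 called *Cnp*.

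*Nfasc* was the exception within the structural genes. It encodes neurofascin, an adhesion molecule that oligodendrocytes place at the paranodal junction and that neurons place at nodes and initial segments. It was at 528, 569.9 and 529 CPM in control and 551, 484 and 531 CPM in mutant samples. The genotypes overlapped, and the log2 fold change of -0.06 ± 0.08 (SE) was the only one below 0 among the 39 tested members (adjusted *p* = 0.901, edgeR's quasi-likelihood test). This value was -0.01 without mutant replicate 2, -0.02 without control replicate 2 and -0.10 without mutant replicate 1.

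Among the 7 lipid and metabolic enzymes, *Aspa* passed the test. *Aspa* encodes aspartoacylase, which splits N-acetylaspartate and so frees acetate for lipid synthesis, and was at 8.11, 6.81 and 7.32 CPM in control and 14.0, 14.6 and 14.3 CPM in mutant samples. The spread within each genotype was small, with means of 7.41 ± 0.656 CPM (SD, n = 3) and 14.3 ± 0.276 CPM (SD, n = 3). The log2 fold change was 0.95 ± 0.14 (SE), with an adjusted *p* = 0.0445 from edgeR's quasi-likelihood test, close to the threshold. *Aspa* passed in 0 of the 6 fits that left out a sample, where its adjusted p-values were 0.0758, 0.0605 and 0.117 without control replicates 1, 2 and 3 and 0.0723, 0.216 and 0.174 without mutant replicates 1, 2 and 3, while its log2 fold change stayed between 0.89 and 1.02. Over all alternatives run other than the replicate block, adjusted p-values ran from 0.000448 to 0.216.

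*Ugt8a* and *Fa2h* act in the synthesis of galactolipids of myelin, the first adding galactose to ceramide and the second hydroxylating its fatty acid. *Ugt8a* was at 25.1, 34.4 and 19.2 CPM in control and 44.8, 45.2 and 55.8 CPM in mutant samples, and *Fa2h* was at 14.0, 24.0 and 11.05 CPM in control and 30.7, 33.3 and 30.2 CPM in mutant samples. Every mutant exceeded every control in both, with log2 fold changes of 0.88 ± 0.20 (SE) and 0.93 ± 0.26 (SE). *Car2*, the carbonic anhydrase gene of the mature cells, was at 90.7, 127 and 87.3 CPM in control and 155, 160.2 and 139.9 CPM in mutant samples and had a log2 fold change of 0.57 ± 0.14 (SE). *Qdpr*, a reductase gene that recycles tetrahydrobiopterin, was at 45.0, 42.1 and 41.5 CPM in control and 62.5, 65.7 and 58.8 CPM in mutant samples. Its samples were close together within each genotype, and its log2 fold change of 0.54 ± 0.09 (SE) missed the threshold narrowly (adjusted *p* = 0.0567, edgeR's quasi-likelihood test). *Sirt2*, the gene for a deacetylase abundant in myelin, was at 83.3, 99.8 and 84.8 CPM in control and 99.8, 103 and 139.6 CPM in mutant samples, with control replicate 2 and mutant replicate 1 almost equal and a log2 fold change of 0.35 ± 0.14 (SE). *Enpp2* encodes autotaxin, which makes lysophosphatidic acid and is also expressed by the choroid plexus, and was at 289, 228 and 246 CPM in control and 306, 418 and 269 CPM in mutant samples. Mutant replicate 3 lay below control replicate 1 in *Enpp2*, whose log2 fold change was 0.38 ± 0.16 (SE), and 0.18 without mutant replicate 2, its highest sample. That of *Sirt2* was 0.18 without mutant replicate 3. DESeq2 called 5 of the 7 enzymes, namely *Aspa*, *Ugt8a*, *Fa2h*, *Car2* and *Qdpr*.

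A further 10 genes belong to mature oligodendrocytes without being part of myelin structure or lipid synthesis, and several of them are expressed by other cells as well. *Trf*, the transferrin gene, was at 43.9, 54.8 and 35.2 CPM in control and 84.6, 72.6 and 61.6 CPM in mutant samples, with a log2 fold change of 0.70 ± 0.17 (SE). *Gpr37*, a receptor gene that restrains oligodendrocyte differentiation, was at 28.9, 34.1 and 30.3 CPM in control and 39.1, 51.5 and 48.4 CPM in mutant samples, with a log2 fold change of 0.58 ± 0.12 (SE). *Lpar1*, the gene for a receptor of lysophosphatidic acid, was at 85.3, 73.6 and 78.4 CPM in control and 98.4, 109 and 112 CPM in mutant samples, with a log2 fold change of 0.43 ± 0.09 (SE). In these 3 genes, all of which DESeq2 called, no mutant was as low as any control. *Ndrg1*, a stress response gene, was at 55.9, 65.97 and 53.2 CPM in control and 79.5, 77.7 and 70.6 CPM in mutant samples, with a log2 fold change of 0.38 ± 0.10 (SE). *Cryab*, which encodes a small heat shock protein, was at 21.0, 21.2 and 16.2 CPM in control and 26.4, 26.1 and 24.4 CPM in mutant samples, with a log2 fold change of 0.40 ± 0.13 (SE). *Evi2a*, a membrane protein gene within an intron of *Nf1*, was at 4.96, 7.68 and 4.16 CPM in control and 8.50, 10.2 and 7.86 CPM in mutant samples, with a log2 fold change of 0.65 ± 0.24 (SE). The genotypes were apart in these 3 genes too, but in *Evi2a* only by the gap between control replicate 2 and mutant replicate 3. Adjusted p-values of the 6 genes lay between 0.118 and 0.440 in edgeR's quasi-likelihood test.

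The remaining mature genes overlapped between genotypes. *Gsn*, which encodes the actin-severing protein gelsolin, was at 34.1, 13.7 and 29.4 CPM in control and 31.6, 34.9 and 29.4 CPM in mutant samples, and control replicate 2 stood apart from all others. *Apod*, the apolipoprotein D gene, was at 118, 158 and 136 CPM in control and 116, 217 and 135 CPM in mutant samples, with mutant replicate 2 above all others. Without that sample, the log2 fold change of *Apod* was -0.13 in place of 0.18, and it was 0.09 and 0.30 without control replicates 1 and 2 and 0.36 without mutant replicate 1. *Plekhh1*, a gene for a protein with pleckstrin homology domains, was at 36.5, 30.9 and 25.5 CPM in control and 42.5, 34.1 and 29.5 CPM in mutant samples. The log2 fold changes of *Gsn* and *Plekhh1* were 0.32 ± 0.32 (SE) and 0.19 ± 0.16 (SE). That of *Gsn* was 0.01 without control replicate 2 and 0.57 without control replicate 1. That of *Plekhh1* was 0.04 without mutant replicate 1, 0.07 without control replicate 3, 0.30 without mutant replicate 3 and 0.32 without control replicate 1. *Ppp1r14a*, an inhibitor gene of myosin phosphatase, was the only member that did not pass the filter, with 0, 1 and 2 counts in the controls and 1, 2 and 7 counts in the mutants, so that a difference was not detectable at this depth.

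**Figure D2:**
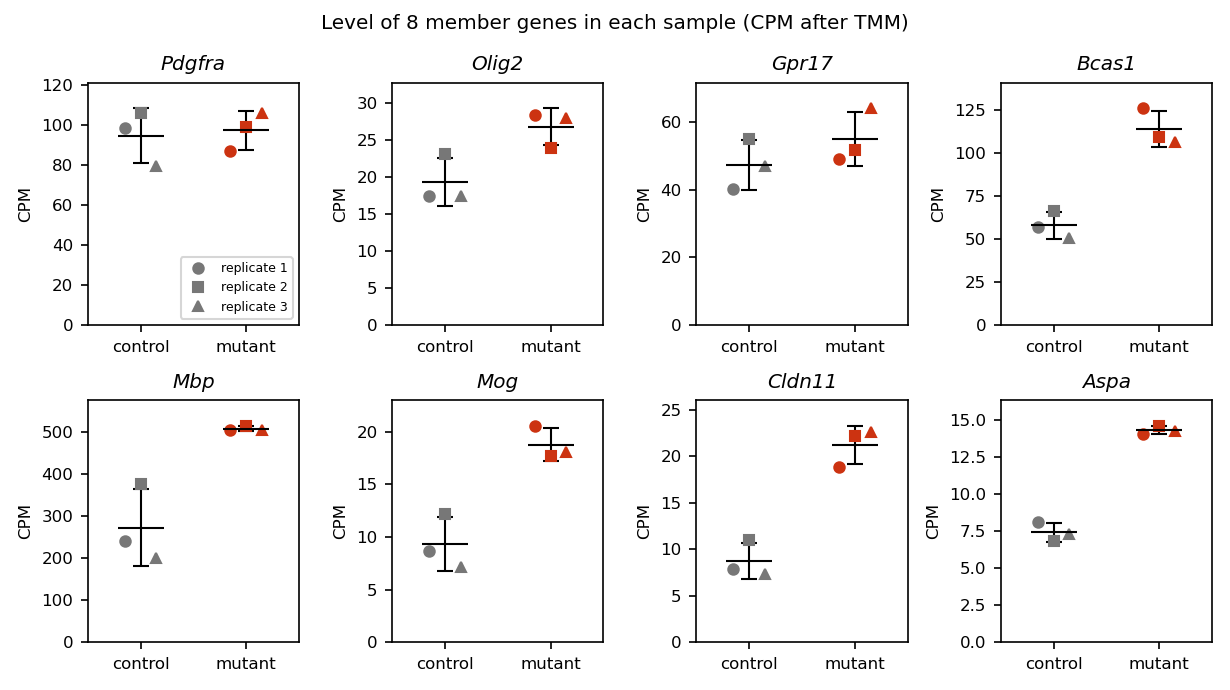
CPM (y axes from 0) of 8 member genes in each control (grey) and mutant (red) sample, with symbols for the replicate number and horizontal marks with bars for the mean and SD of 3 samples. *Pdgfra* overlaps between genotypes, at 79.1 to 106 CPM in controls and 86.7 to 106 CPM in mutants, whereas *Cldn11* runs from 7.39 to 10.99 CPM in controls and from 18.8 to 22.6 CPM in mutants.

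The stages were also read sample by sample, as a description. For each tested gene, its log2 CPM was set relative to the mean of the controls, and the median over the genes of a stage was taken in each sample. The precursor median was 0.13, 0.15 and -0.28 in the controls and -0.14, 0.08 and 0.22 in the mutants, with overlap. For the lineage factors it was -0.04, 0.27 and -0.22 in the controls and 0.58, 0.43 and 0.50 in the mutants. The newly formed genes gave -0.06, 0.07 and 0.06 in the controls and 0.37, 0.31 and 0.50 in the mutants. In these last 2 stages no mutant was as low as any control. For the myelinating genes the medians were -0.05, 0.26 and -0.23 in the controls and 0.72, 0.73 and 0.57 in the mutants, also without overlap, and over all genes tested they were 0.00, 0.00 and 0.01 in the controls and 0.00, 0.02 and 0.01 in the mutants. Control replicate 2 was the highest control in 20 of the 28 tested myelinating genes and control replicate 3 the lowest in 18. The order of the controls was thus frequent but not shared by all of these genes, *Gsn* having control replicate 2 lowest. The same count was not made over all genes tested. Among the mutants, replicate 3 was the lowest in 17 of 28. The median ratio of the highest to the lowest sample was 1.48 within controls and 1.22 within mutants for the myelinating genes, against 1.25 and 1.23 over all genes tested.

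**Figure D3:**
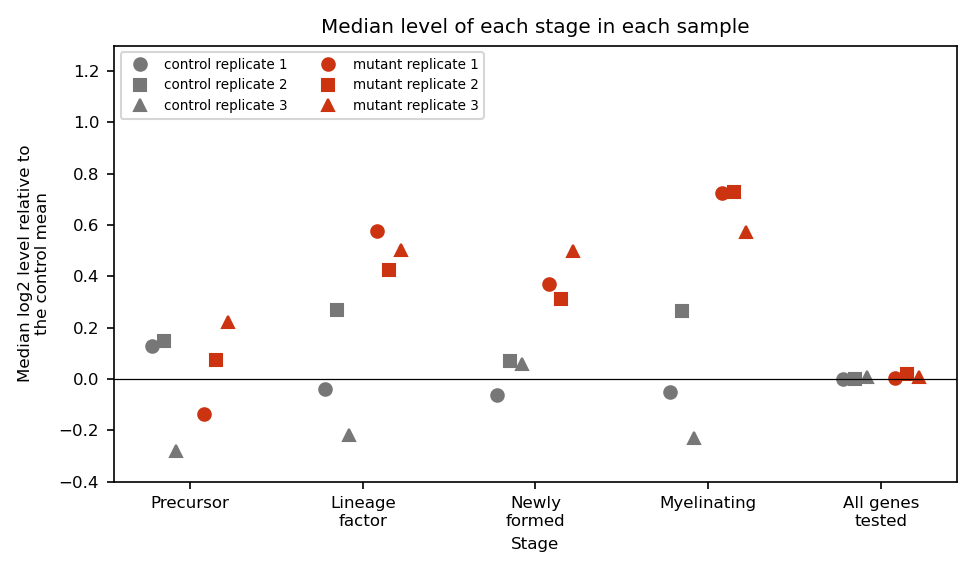
Median over the tested genes of each stage of the log2 CPM relative to the control mean (y axis), in each control (grey) and mutant (red) sample, with symbols for the replicate number and all genes tested at the right. The precursor medians overlap between genotypes, and the myelinating medians lie between -0.23 and 0.26 in controls and between 0.57 and 0.73 in mutants.

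The order of the stage medians was the same in each of the 6 fits that left out a sample, with the precursor genes lowest, then the newly formed genes, the lineage factors and the myelinating genes. Over these 6 fits the precursor median ran from -0.08 to 0.14, that of the lineage factors from 0.44 to 0.60, that of the newly formed genes from 0.34 to 0.43 and that of the myelinating genes from 0.56 to 0.83.

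Ratios of counts of 2 genes within a library do not depend on the scaling between libraries. The ratio of *Mbp* to *Pdgfra* counts was 2.44, 3.56 and 2.54 in the controls and 5.81, 5.21 and 4.75 in the mutants. That of *Bcas1* to *Pdgfra* was 0.579, 0.628 and 0.640 in the controls and 1.45, 1.11 and 1.01 in the mutants. That of *Cldn11* to *Pdgfra* was 0.0803, 0.104 and 0.0934 in the controls and 0.217, 0.225 and 0.213 in the mutants. None of these 3 ratios of a later gene to a precursor gene overlapped between the genotypes. By contrast, the ratio of *Gpr17* to *Pdgfra* was 0.408, 0.519 and 0.593 in the controls and 0.566, 0.523 and 0.603 in the mutants. Ratios between later genes overlapped as well, that of *Bcas1* to *Mbp* being 0.237, 0.176 and 0.252 in the controls and 0.250, 0.213 and 0.212 in the mutants. That of *Mag* to *Mog* was 0.946, 0.905 and 0.670 in the controls and 0.707, 0.979 and 0.716 in the mutants. These ratios were not tested. *Bcas1* and *Cldn11* were called above, *Mbp* had every mutant above every control, and *Pdgfra* had a log2 fold change of 0.04. The 3 ratios to *Pdgfra* that did not overlap thus restate those values and are no separate result. How many of all genes tested have a ratio to *Pdgfra* without overlap was not counted.

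Levels of different genes were compared per length, as CPM per kilobase of annotated exon (RPKM), which could be given for 39 of the 40 genes. The highest mean RPKM over all samples was that of *Enpp2*, with a control mean of 73.2 RPKM and a mutant mean of 95.4 RPKM, which ranked at the 97.4 percentile of the genes tested. It was followed by *Car2* (56.9 and 84.7 RPKM) and *Apod* (53.3 and 60.5 RPKM). Of the structural genes, *Mbp* was at 32.4 RPKM in controls and 60.4 RPKM in mutants and *Mal* at 24.2 and 47.3 RPKM. *Pdgfra*, at 14.0 and 14.4 RPKM, was of the same order as *Bcas1* in controls, at 15.4 RPKM. The called genes *Cldn11* (4.75 and 11.5 RPKM) and *Aspa* (1.32 and 2.54 RPKM) ranked at the 59.1 and 25.01 percentiles. *Opalin* and *Gjb1* were the lowest of the tested members with a length, at the 12.4 and 11.1 percentiles.

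Further genes of the same stages, outside the 40, were read from lists of 12 other precursor genes, 12 other newly formed genes and 35 other myelinating genes. These lists too were chosen with earlier results of these data known. None of them passed edgeR's quasi-likelihood test at an adjusted p-value under 0.05. Over all genes tested, 4.84% had an unadjusted p-value under 0.05 with a higher level in mutants and 4.01% with a lower one. Every mutant lay above every control in 7.88% and below in 7.88%, and DESeq2 called 0.602% higher and 0.564% lower. Among the precursor genes, 0 of 12 had an unadjusted p-value under 0.05 with a higher level in mutants and 1 of 12 with a lower one, 0 and 1 were called by DESeq2, and the median log2 fold change was -0.04. Their most abundant genes per length were *Ptprz1*, a receptor phosphatase gene also expressed by astrocytes (control mean 948 ± 125 CPM and mutant mean 776 ± 132 CPM, SD, n = 3), and *Lhfpl3* (control mean 67.9 ± 10.97 CPM and mutant mean 68.3 ± 16.5 CPM, SD, n = 3). Among the newly formed genes, 1 of 12 had an unadjusted p-value under 0.05 in each direction, 0 were called by DESeq2, and the median was 0.07. *Fyn*, a kinase gene that acts in early differentiation, had a control mean of 80.9 ± 5.46 CPM and a mutant mean of 87.1 ± 11.3 CPM (SD, n = 3). *Tcf7l2*, a Wnt effector gene of newly formed cells that some neurons also express, was at 137, 113 and 109 CPM in control and 91.4, 99.6 and 84.9 CPM in mutant samples, with every mutant below every control, a log2 fold change of -0.38 ± 0.11 (SE) and an adjusted *p* = 0.279 in edgeR's test. Of the 35 myelinating genes, 33 were tested, 17 had an unadjusted p-value under 0.05 with a higher level in mutants and 0 with a lower one, 18 had every mutant above every control, DESeq2 called 3 higher and 0 lower, and the median log2 fold change was 0.48.

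*Omg*, a gene of that list, encodes a myelin glycoprotein that neurons also make. It was at 189.9, 239 and 252 CPM in control and 184, 230.3 and 266 CPM in mutant samples, without any separation of the genotypes. Summed over the 35 genes, levels were 1618, 2030.2 and 1585 CPM in the controls and 2353, 2343 and 2357 CPM in the mutants.

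Regulators of differentiation were read as well, beside the 4.84% of all genes tested with an unadjusted p-value under 0.05 and a higher level in mutants. Of 8 drivers of differentiation, 7 were analysed here, all 7 were tested and had a log2 fold change above 0, and 0 passed edgeR's test or DESeq2, while 3 had an unadjusted p-value under 0.05. Their median log2 fold change was 0.32. *Zeb2*, a gene for a repressor of inhibitory signals to the lineage, was at 137, 138 and 164 CPM in control and 164, 203 and 181 CPM in mutant samples, a log2 fold change of 0.32 ± 0.10 (SE). *Sox8*, a relative of *Sox10*, was at 19.97, 29.0 and 18.9 CPM in control and 24.0, 31.5 and 30.4 CPM in mutant samples, with overlap. Of 7 inhibitors of differentiation, 0 passed edgeR's test or DESeq2, 1 had an unadjusted p-value under 0.05, and the median was 0.12. *Id4* and *Id2* encode proteins that hold back basic helix-loop-helix factors. *Id4* was at 78.1, 46.7 and 54.5 CPM in control and 58.1, 69.8 and 66.5 CPM in mutant samples, and *Id2* was at 22.4, 17.5 and 22.5 CPM in control and 24.5, 31.7 and 32.1 CPM in mutant samples, with every mutant above every control in the second only.

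Receptors for steroid and thyroid hormones and for retinoids, through which hormones act on the lineage, formed a list of 8 genes. Of these, 7 were tested, and 0 passed edgeR's test at an adjusted p-value under 0.05. An unadjusted p-value under 0.05 was found for 3 with a lower level in mutants and 0 with a higher one, against 4.01% and 4.84% of all genes tested. DESeq2 called 3 lower and 0 higher, against 0.564% and 0.602% of all genes. The median log2 fold change was -0.09. *Pgr*, the progesterone receptor gene, was at 110.4, 123 and 117 CPM in control and 64.1, 80.9 and 80.3 CPM in mutant samples. *Thrb*, the gene for thyroid hormone receptor beta, was at 148, 142 and 151 CPM in control and 106, 117 and 105 CPM in mutant samples. Every mutant lay below every control in both, with log2 fold changes of -0.64 ± 0.10 (SE) and -0.43 ± 0.08 (SE) and, in edgeR's quasi-likelihood test, adjusted p-values of 0.0567 and 0.0706. Neurons of the ARC express both genes, and in which cells they were measured is not known from bulk tissue. *Esr2*, the gene for estrogen receptor beta, was not tested, being at 0.0670, 0.524 and 0.287 CPM in control and 0.165, 0.314 and 0.533 CPM in mutant samples.

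Markers of other cell types were read beside these results, since a microdissection can hold more or less of each. None of the 60 markers was at 0 in all 6 samples, and 0 passed edgeR's test at an adjusted p-value under 0.05, while 8 had an unadjusted p-value under 0.05 with a higher level in mutants and 1 with a lower one, and DESeq2 called 1. Over all genes tested, the shares at an unadjusted p-value under 0.05 were 4.84% higher and 4.01% lower, and in 7.88% every mutant lay above every control. The 10 microglia markers all had a log2 fold change above 0, 6 of them with every mutant above every control and with an unadjusted p-value under 0.05, and the gene that DESeq2 called was one of them. Their summed level was 299, 296 and 288 CPM in the controls and 389, 361 and 368 CPM in the mutants, without overlap, and the median log2 fold change was 0.37. The microglia markers thus lay on the same side as the myelin genes, and their part in the myelin results was not tested.

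The 8 astrocyte markers, led by *Slc1a2*, summed to 3839, 6648 and 4938 CPM in the controls and 4149, 4706 and 6097 CPM in the mutants, with overlap, 0 of 8 with an unadjusted p-value under 0.05 and 0 called by DESeq2, and their median log2 fold change was -0.05. The glutamate transporter gene *Slc1a2* itself was at 2612, 4929 and 3590.3 CPM in control and 2783, 3336 and 4363 CPM in mutant samples, highest in control replicate 2. The 8 neuron markers, led by *Snap25*, summed to 3464, 4475 and 4365 CPM in the controls and 3823, 5258 and 4841 CPM in the mutants, with 1 of 8 at an unadjusted p-value under 0.05 in each direction and a median of 0.09. *Snap25*, a synaptic vesicle fusion gene, was at 2402, 3092 and 3033 CPM in control and 2688, 3849 and 3388 CPM in mutant samples. For the 8 endothelial and mural markers, led by *Rgs5*, the sums were 215, 142 and 188 CPM in the controls and 194, 198 and 199 CPM in the mutants, and the median was 0.13. Control replicate 2 was the lowest sample there, and *Rgs5*, a pericyte gene, was at 87.5, 53.2 and 63.8 CPM in control and 74.3, 75.2 and 72.4 CPM in mutant samples.

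The 7 fibroblast markers, genes of the meninges, summed to 319.5, 89.7 and 324 CPM in the controls and 164, 356 and 233 CPM in the mutants, with control replicate 2 far below all others, and their median log2 fold change was 0.13. *Dcn*, the decorin gene and the most abundant of them, was at 187, 33.4 and 202 CPM in control and 88.9, 198 and 124 CPM in mutant samples. Control replicate 2 thus had the highest level of most myelin genes among controls and the lowest level of the fibroblast markers, and whether the 2 are related was not tested. The 6 tanycyte and ependymal markers summed to 428, 214 and 266 CPM in the controls and 506, 419 and 433 CPM in the mutants, most of it *Col25a1*, which neurons also express, at 397, 182 and 225 CPM in control and 477, 377 and 389 CPM in mutant samples, with overlapping genotypes and a median of 0.44. Schwann cells make the myelin of peripheral nerve with several of the same genes. Their 5 markers summed to only 2.41, 1.86 and 3.73 CPM in the controls and 2.56, 2.58 and 2.07 CPM in the mutants. *Prx* was the most abundant of them, at 0.938, 0.640 and 1.79 CPM in control and 0.330, 1.32 and 1.33 CPM in mutant samples, and 2 of the 5 were tested, with a median log2 fold change of 0.14.

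Markers of the nuclei that adjoin the ARC were read as well. The 8 genes summed to 12.9, 67.7 and 42.2 CPM in the controls and 25.2, 106 and 122 CPM in the mutants. Samples of the same genotype differed several-fold, replicate 1 of both genotypes being low, and the genotypes overlapped. The most abundant by CPM was *Fezf1*, a transcription factor gene of the ventromedial nucleus, at 1.14, 32.7 and 24.2 CPM in control and 9.90, 47.2 and 52.3 CPM in mutant samples. The median log2 fold change of the 8 genes was 1.06, and 0 of 8 had an unadjusted p-value under 0.05 in edgeR's test or an adjusted one under 0.05 in DESeq2. The part of these markers in the myelin results was not tested.

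The 3 called genes lie on different chromosomes (build NCBIM37, GENCODE, matched by symbol). The place of *Bcas1* is chromosome 2, minus strand, bases 170172491 to 170253345. *Cldn11* is found at chromosome 3, plus strand, bases 31048868 to 31063246, and *Aspa* at chromosome 11, minus strand, bases 73118494 to 73140309. Counts were made over exons. The exons of *Bcas1* share 474 bases with genes annotated on the opposite strand, and 8 further members (*Cnp*, *Ermn*, *Gpr17*, *Ndrg1*, *Nkx6-2*, *Plekhh1*, *Sirt2* and *Tspan2*) also share exon bases with the opposite strand. *Evi2a* shares 412 bases with *Evi2b* on the same strand. Whether the counting used the strand is not given in the sources used here, so reads of such partners cannot be told apart. The exons of *Cldn11* and *Aspa* are shared with no other annotated gene.

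Promoter sequences are shown because many members lay on the same side, and because the lineage factor *Sox10* and the receptor gene *Esr1* encode proteins that bind DNA. They were taken from RefSeq on the later build GRCm38.p6, as the 250 bases before each annotated start, read on the strand of the gene from 5′ to 3′. Of the 40 genes, 28 were matched with 39 starts, and *Sox10*, *Olig1*, *Gpr17*, *Bcas1*, *Mbp*, *Fa2h*, *Car2*, *Enpp2*, *Trf*, *Cryab*, *Evi2a* and *Ndrg1* were not. The motifs searched, on both strands, were ACAAAG, a core bound by SOX proteins, CTGGCAC, bound by MYRF, GGTCA, one arm of the estrogen response element, and the full element, which is GGTCA, any 3 bases and TGACC and so contains the single arm. ACAAAG was found in 11 of the 39 windows (28.2%) against 16.5% of 32851 windows of all genes. CTGGCAC was found in 4 (10.3%) against 4.19%. The single arm GGTCA was found in 10 (25.6%) against 35.2%, and the full element in 0 against 0.0639%. Starts of one gene can share bases, no test was run, and a match describes the letters and is no measure of binding.

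The windows of the called genes *Cldn11* (chr3:31149670-31149919, plus strand) and *Aspa* (chr11:73324638-73324887, minus strand) have capitals at the letters GGTCA or their reverse complement, and neither held ACAAAG or CTGGCAC.
Cldn11: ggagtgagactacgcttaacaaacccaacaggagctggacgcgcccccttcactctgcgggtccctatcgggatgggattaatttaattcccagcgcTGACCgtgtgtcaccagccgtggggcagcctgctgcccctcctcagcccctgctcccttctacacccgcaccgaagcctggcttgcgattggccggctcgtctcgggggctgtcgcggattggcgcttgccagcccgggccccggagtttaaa
Aspa: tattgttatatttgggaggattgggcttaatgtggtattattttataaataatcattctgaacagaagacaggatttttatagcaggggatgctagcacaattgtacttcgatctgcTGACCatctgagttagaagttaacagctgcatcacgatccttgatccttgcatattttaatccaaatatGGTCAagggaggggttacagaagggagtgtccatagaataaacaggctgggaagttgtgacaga

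The window of *Mobp* (chr9:120149492-120149741, plus strand) had the letters of the SOX core in 6 places, all as the reverse complement CTTTGT. Those of *Cnp* (chr11:100574689-100574938, plus strand) and of *Mag* (chr7:30914864-30915113, minus strand) held both ACAAAG, or its reverse complement, and CTGGCAC, and that of *Cnp* also the reverse complement of GGTCA. A window of another start of *Mag* overlaps the one shown and holds the same letters, so that they were counted in 2 windows. Capitals mark these letters.
Mobp: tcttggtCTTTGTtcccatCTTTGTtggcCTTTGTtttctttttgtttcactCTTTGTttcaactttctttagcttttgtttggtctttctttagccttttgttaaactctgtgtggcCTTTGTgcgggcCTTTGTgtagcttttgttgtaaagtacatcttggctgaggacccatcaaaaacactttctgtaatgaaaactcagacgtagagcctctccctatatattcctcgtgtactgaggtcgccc
Cnp: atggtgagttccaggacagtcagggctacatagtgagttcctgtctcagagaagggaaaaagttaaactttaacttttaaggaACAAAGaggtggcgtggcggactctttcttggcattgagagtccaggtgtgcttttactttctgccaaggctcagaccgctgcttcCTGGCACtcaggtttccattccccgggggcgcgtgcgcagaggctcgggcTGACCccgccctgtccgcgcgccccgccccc
Mag: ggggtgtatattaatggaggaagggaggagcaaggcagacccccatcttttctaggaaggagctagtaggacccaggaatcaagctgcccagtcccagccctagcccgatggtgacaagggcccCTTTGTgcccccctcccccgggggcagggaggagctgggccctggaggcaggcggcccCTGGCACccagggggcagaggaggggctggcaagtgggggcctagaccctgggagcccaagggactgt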

How the data were processed

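RNA of microdissected ARC (50 ng per the labels) was amplified to cDNA and sequenced. The authors mapped the reads and counted those on exons, and the deposited values are raw counts for 24015 gene symbols in 6 samples, without normalization. The submitters' processing notes name TopHat2 2.1.0, HTSeq 0.6, DESeq2 1.14.1 and the build mm9, and the paper names a build that joins 2 assemblies, so positions come from the GENCODE annotation of NCBIM37 by symbol.

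The genotypes were compared with edgeR 4.0.16 in R 4.3.3 (two-sided quasi-likelihood test, robust dispersions, TMM normalization, default filter on low counts, 15236 genes tested) with Benjamini-Hochberg adjustment over all genes tested and a threshold of 0.05. Alternatives were RLE normalization, DESeq2 1.42.0 with default settings, voom of limma 3.58.1, a minimum of 1 count in any sample or of 10 counts in every sample, a replicate block, and each sample left out in turn. RPKM was computed here from CPM and the joined exon length of each gene, which *Trf* lacks for want of a single match. The SE given with each log2 fold change was derived from edgeR's test, as the absolute log2 fold change divided by the square root of the F statistic. The log2 levels behind the stage medians used a prior count of 2. No library repeated another: counts of any 2 differed with a chi-square of 6.60 to 29.6 per degree of freedom, over genes with at least 10 counts in both together.

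The members and the lists were chosen with earlier results of these data known. Named were all members, *Esr1*, the genes of each other lineage, regulator or receptor list with an adjusted p-value under 0.05 or otherwise the 2 with the highest level per length, and, of each cell type list, the most abundant gene by CPM and any gene at 0 in all samples or with an adjusted p-value under 0.05. Of the differentiation drivers, *Zfp24* was not analysed here, and some genes that this rule names are not reported here.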

Additional observations from a re-analysis of the deposited data

How the results depend on the processing

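The 3 members called by edgeR were the same 3 under RLE normalization (18 genes in all, as with TMM), under limma voom (20) and with at least 10 counts required of every sample (20). DESeq2 called 15 members and 186 genes (96 higher, 90 lower), and a minimum of 1 count in any sample, which tested 22495 genes, gave 6 members and 106 genes (49 higher, 57 lower). Leaving out each sample in turn gave 0 to 11 members and 7 to 46 genes. The cause was not tested. In those fits the log2 fold changes of 4 members that had not passed changed sign in at least 1 fit, that of *Pdgfra* running from -0.0704 to 0.13, *Cspg4* from -0.0862 to 0.16, *Itpr2* from -0.0440 to 0.17 and *Apod* from -0.13 to 0.36. Members called lower were 0 under every alternative run.

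Sample labels carry a number from 1 to 3 within each genotype. With this number as a replicate block, edgeR called 11 members and 123 genes (69 higher, 54 lower). Deviations from the genotype means correlated across genes with r of 0.281, 0.0466 and -0.00264 between the control and the mutant numbered 1, 2 and 3, genes not being independent replicates. Control replicate 2 correlated best with mutant replicate 3 (0.210) and control replicate 3 with mutant replicate 2 (0.0113), so the numbers were not taken to pair the samples.

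Depth limits the statements on *Ppp1r14a*, with 0 to 7 counts a sample, and on the Schwann cell markers, of which 2 of 5 passed the filter on low counts. It also limits those on *Gjb1*, with 14, 11 and 13 counts in the controls and 26, 26 and 15 in the mutants. *Opalin* was low too, with 12, 16 and 13 counts in the controls and 22, 43 and 24 in the mutants.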

Other observations

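Some genes of the lists outside the 40, picked here after their values were seen, had every mutant on one side of every control and were called by DESeq2 but not by edgeR's quasi-likelihood test. *Gjc3*, the gene for a connexin of myelinating glia, was at 48.2, 49.3 and 41.4 CPM in control and 71.5, 65.9 and 79.1 CPM in mutant samples, with a log2 fold change of 0.64 ± 0.10 (SE) and an adjusted *p* = 0.0567 in edgeR's test. *Slc44a1*, a choline transporter gene, was at 50.8, 53.8 and 51.5 CPM in control and 72.9, 69.4 and 75.9 CPM in mutant samples, with a log2 fold change of 0.48 ± 0.08 (SE). *Cx3cr1*, the fractalkine receptor gene of microglia, was at 31.4, 33.3 and 37.7 CPM in control and 50.2, 53.0 and 54.8 CPM in mutant samples, with a log2 fold change of 0.62 ± 0.10 (SE). *Tmem88b*, a further gene of the myelinating list, was at 26.7, 39.0 and 18.6 CPM in control and 56.3, 53.7 and 49.9 CPM in mutant samples, with a log2 fold change of 0.92 ± 0.24 (SE). In the other direction, *Vcan*, a proteoglycan gene of precursors, was at 261, 168 and 248 CPM in control and 144, 147 and 151 CPM in mutant samples, with a log2 fold change of -0.62 ± 0.15 (SE), although the other 11 precursor genes of its list overlapped between the genotypes. *Rxrg*, a retinoid X receptor gene known for a role in remyelination, was at 14.5, 17.5 and 14.8 CPM in control and 6.52, 9.36 and 10.6 CPM in mutant samples, with a log2 fold change of -0.82 ± 0.19 (SE). Adjusted p-values of *Slc44a1*, *Cx3cr1*, *Tmem88b*, *Vcan* and *Rxrg* were 0.0650, 0.0567, 0.304, 0.233 and 0.163 in edgeR's test. Also picked after their values were seen are the genes at an unadjusted p-value under 0.05 in lists with few of them. They are *Myrf* of the newly formed and driver lists, *Zfp488* of the drivers, *Nefm* (above) and *Nefh* (below) of the neuron markers and *Cdh5* of the endothelial and mural markers, with log2 fold changes of 0.72, 0.53, 0.50, -0.35 and 0.46. In which cells these genes were measured is not known from bulk tissue.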
